A study of Mus musculus with 2 samples.

Results

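A footprint is a short stretch inside an open region of chromatin that the enzyme DNase I cut less often than its surroundings, as happens where a bound protein shields the DNA. Footprints differ in length, from a few bases to several turns of the helix, and each transcription factor has its own contact length on DNA. The wide footprints described here were chosen by their width: they are the replicate 1 footprints of at least 25 bp on the autosomes that overlap a replicate 2 footprint by at least 1 bp and whose centre lies in a DNase I hypersensitive site (DHS) of both libraries. They numbered 21051, out of 272597 deposited footprints in replicate 1. The comparison class was made by the same rule from footprints of 8 to 12 bp and held 13745, called narrow footprints below.

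The data are DNase-seq profiles of the adrenal gland, a tissue with a steroid-producing cortex and a medulla of chromaffin cells. The tissue came from B6CASTF1/J male mice aged 25 days, and each of the 2 libraries is a separate biological replicate by its label, although both labels carry the same donor code. There is 1 group and no treatment, so no test between groups exists and no p-value is given. Each library mixes all cells of the gland, so fewer cells with an open or bound site cannot be told apart from less cutting or binding per cell. A height is the deposited peak signal of a DHS, and all heights were whole multiples of 1 step, which implies 120 M counts in replicate 1 and 113 M in replicate 2 if heights are counts scaled to a fixed total. Promoter DHSs, counted where any part came within 1 kb of a start, were present in both libraries at all 6 cortex markers checked (Star, Nr5a1, Cyp11b1, Cyp21a1, Mc2r and Mrap), at 3 of 4 chromaffin markers and at 1 of 4 markers of other organs (the muscle gene Ckm, at heights of 5.97 and 4.56). In replicate 1 Star, Nr5a1 and Mrap were taller than Ckm (7.55, 9.01 and 8.37), and in replicate 2 only Mrap was (5.26). Cyp11b1 (2.17 and 1.57) and Cyp21a1 (1.67 and 1.53) were lower than Ckm in both. Mc2r (0.458 and 0.666) was below the median autosomal DHS (1.02 and 0.737). By the DHS centre, Mc2r had no shared DHS within 1 kb.

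CTCF and REST are known for long contacts on DNA. CTCF, which anchors chromatin loops and insulators, reads DNA with a row of zinc fingers, and REST, which silences neuronal genes outside neurons, does the same over a motif of 2 parts. CREB and NFI bind palindromes as dimers, as do NRF1 and RFX, and BANP binds a palindrome in CpG-rich promoters. AP-1, a dimer of Fos and Jun proteins, binds the 7 bp palindrome TGANTCA, which resembles the 8 bp CREB palindrome TGACGTCA. The cortical regulator SF-1 is encoded by Nr5a1 and binds as a monomer.

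The following sequences show what wide footprints contained. Each is the replicate 1 footprint with 5 bp added on each side, read from the reference assembly GRCm38.p6 (mm10), which is not the sequence of these hybrid animals, and is written 5′ to 3′ on the strand of the motif. Capitals mark the match that its group is named for, and no sequence in a UTR is shown. The CTCF set is shown because CTCF was the motif found most often in wide footprints, and it holds the widest footprint of all, which had 2 matches.
CTCF at Sec22c (chr9:121697874-121697955, plus strand): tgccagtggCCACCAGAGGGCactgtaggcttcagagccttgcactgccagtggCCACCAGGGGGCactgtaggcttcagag
CTCF near Gm15319 (chr8:20424863-20424918, minus strand): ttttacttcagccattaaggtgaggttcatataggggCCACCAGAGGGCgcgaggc
CTCF at Meg3 (chr12:109543023-109543061, minus strand): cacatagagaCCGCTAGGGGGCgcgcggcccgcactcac
The REST set is shown because it held genes of chromaffin cells and neurons.
REST near Npas4 (chr19:4989152-4989190, plus strand): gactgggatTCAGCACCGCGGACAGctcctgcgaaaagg
REST at Chgb (chr2:132781784-132781824, plus strand): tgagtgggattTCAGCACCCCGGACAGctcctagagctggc
REST at Snap25 (chr2:136714329-136714368, plus strand): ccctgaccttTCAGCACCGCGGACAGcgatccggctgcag
The next set shows palindromes inside wide footprints at promoters.
CREB at Lrrc8a (chr2:30237650-30237688, plus strand): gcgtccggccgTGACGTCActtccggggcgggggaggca
NRF1 at Nup107 (chr10:117792740-117792782, plus strand): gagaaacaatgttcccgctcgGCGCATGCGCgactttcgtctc
NFI at Gstm7 (chr3:107931850-107931886, plus strand): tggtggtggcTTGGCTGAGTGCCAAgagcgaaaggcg
RFX at Prkar1a (chr11:109650851-109650885, plus strand): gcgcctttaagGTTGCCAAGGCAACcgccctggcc
BANP at Bclaf1 (chr10:20312325-20312368, plus strand): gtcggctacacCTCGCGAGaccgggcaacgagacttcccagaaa
The last set shows 1 match at the end of a long footprint, 1 wide footprint with a CCAAT box and 1 inside a tRNA gene, where capitals mark the 8-mer of the results on tRNA genes.
AP-1 at Eif1 (chr11:100319759-100319798, plus strand): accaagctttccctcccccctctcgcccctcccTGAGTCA
NFY at Stip1 (chr19:7040037-7040112, minus strand): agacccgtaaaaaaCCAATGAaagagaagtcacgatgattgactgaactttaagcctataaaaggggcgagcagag
tRNA-Thr gene (chr16:13437354-13437397, plus strand): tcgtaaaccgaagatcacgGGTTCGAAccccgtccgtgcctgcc

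Wide footprints were common in replicate 1 and rare in replicate 2. On the autosomes, 33048 of 266793 replicate 1 footprints (12.4%) were at least 25 bp wide, against 3504 of 180128 (1.95%) in replicate 2. Of the 33048, 22579 overlapped a replicate 2 footprint and 21051 (63.7%) met the whole rule, against 13745 of 93901 narrow footprints (14.6%). The members were 25 to 72 bp wide with a median of 29 bp, and 7.61% reached 40 bp. Since the width chose the members, these values are a description. Just inside and outside the limit, the 2512 footprints of 25 bp had median heights of 4.52 and 2.90 in replicates 1 and 2 and a promoter share of 36.4%, and the 2575 of 24 bp had 5.18, 3.30 and 42.1%, so the limit cuts through a gradual change.

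The second library rarely gave the same interval. At the 21051 members the overlapping replicate 2 footprint had a median width of 14 bp (quartiles 10 and 21), and 2700 of them (12.8%) were at least 25 bp wide. In 89.1% of cases it lay wholly inside the replicate 1 interval, and in 1.36% it was wider. In all, 143 intervals were identical. The median shift from the replicate 1 to the replicate 2 edge was 5 bp at the left and -6 bp at the right, so the interval was shorter on both sides. A minority of 19% held 2 replicate 2 footprints within the 1 wide interval, and taking all of them together gave a median span of 19 bp. Pearson's r between the widths in the 2 libraries was 0.014 over the 21051 sites, a description of sites that share their libraries and were cut at 25 bp in replicate 1 only. A member is therefore a place where both libraries had a footprint, and its full width is a replicate 1 measurement.

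**Figure D1:**
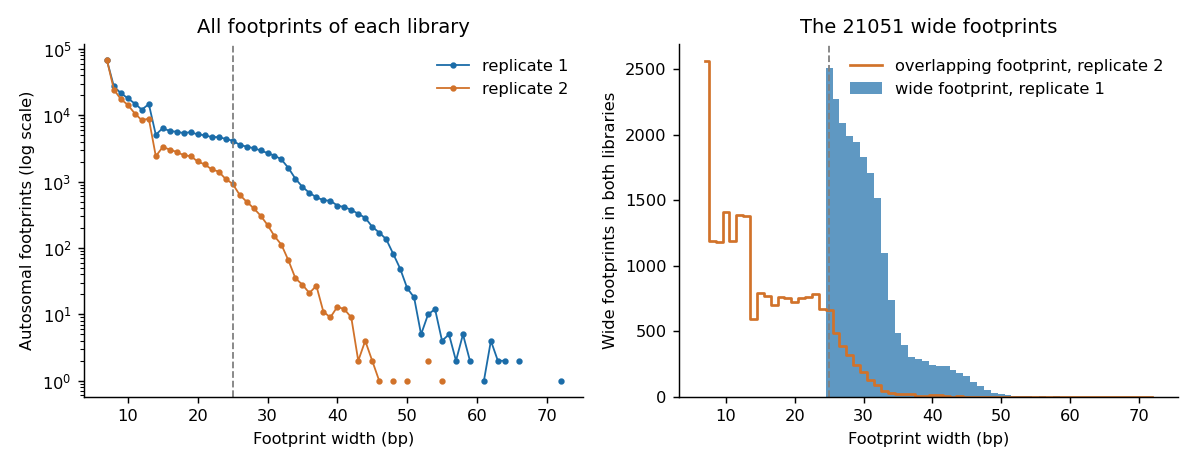
Left, number of autosomal footprints of each width in bp (vertical log axis) in replicate 1 and replicate 2. Right, widths of the 21051 wide footprints in replicate 1 (bars) and of the replicate 2 footprint that overlaps each (line), whose median is 14 bp. The dashed line marks 25 bp.

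CTCF was the motif found most often in wide footprints and 1 of the 2 with the highest ratio to narrow ones. In 50 bp windows centred on the footprint, searched on both strands, 3862 wide windows (18.3%, Wilson 95% interval 17.8 to 18.9) and 150 narrow windows (1.09%, 0.931 to 1.28) held the CTCF consensus, a log2 ratio of 4.07. Windows of the same length at the centres of all longer-list DHSs held it in 4.31% (replicate 1) and 2.54% (replicate 2). The wide share was the higher one on 19 of 19 autosomes, at 15.6% to 21.8% against 0.436% to 2.36%. With 1 mismatch allowed the shares were 36.9% and 4.92%, and with 2 mismatches 50.6% and 19.4%, settings chosen after seeing the data. With replicate 2 intervals they were 18.5% and 6.46%. The intervals of all these shares cover counting error only, since sites of 1 library are not independent animals.

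CTCF footprints also had a characteristic placement. In the 3860 wide windows with 1 match, the replicate 1 footprint began a median of 6 bp before the consensus (quartiles 5 and 7) and ended 12 bp after it (10 and 14), read in the direction of the motif. The consensus lay fully inside the footprint in 99.0%. In replicate 2 the overlapping footprint began 1 bp before and ended 5 bp after, so its edges lay closer to the consensus on both sides. The 149 narrow footprints with 1 match had quartiles of -10 to 4 bp before the consensus, so their starts were scattered over it. Starting from the motif gives the same picture: of 6042 CTCF matches in DHSs shared by both libraries, 72.0% (70.8 to 73.1) lay under a wide replicate 1 footprint, 2.28% under a narrow one and 91.0% under any. In replicate 2 the same matches lay under a wide footprint in 9.98% and under any in 61.5%. These shares count every footprint of at least 25 bp as wide, whether or not the other library had one. Of the same matches, 52.1% lay under a wide replicate 1 footprint and also under any replicate 2 footprint.

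Wide footprints with a CTCF match lay away from promoters. Of these, 8.54% were promoter footprints (at most 1 kb from the start of a protein-coding gene) and 49.4% were intergenic, against 36.2% and 32.6% of the 17189 other members. Their median distance to a start was 16738 bp, against 6186 bp. Their DHSs were lower than those of the others, with medians of 4.54 and 6.02 in replicate 1 and 1.87 and 3.11 in replicate 2. This comparison mixes promoter and distal sites. Over all distal members the medians were 4.01 and 1.94 in replicates 1 and 2, close to those of CTCF members. The log2 ratio of replicate 2 to replicate 1 height had a median of -1.20 at CTCF members and -0.72 at the others. Over all distal members it was -0.97, so the fall in height from replicate 1 to replicate 2 was larger at CTCF members. The part this plays in the narrower replicate 2 intervals was not tested. By width, the CTCF share was 13.1% at 25 to 29 bp, 25.4% at 30 to 39 bp and 15.6% at 40 bp or more. Members that were also at least 25 bp wide in replicate 2 held it in 22% against 17.8% of the rest, but in 10.9% against 13.3% at 25 to 29 bp and 6.4% against 17% at 40 bp or more, so there was no single direction.

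Single CTCF members differed between the libraries in height, and not always in width. The widest member, with the tandem matches shown above (chr9:121697879-121697950), was 72 bp wide in replicate 1 and 20 bp in replicate 2, at heights of 2.86 and 1.82. It lay in an intron, 4873 bp upstream of the nearest start, that of Sec22c, and its central 32 bases occurred 4 times in the reference. The CTCF member in the tallest DHS (chr8:20424868-20424913) was 46 and 43 bp wide at heights of 47.2 and 18.7, 61681 bp from the start of Gm15319, and its central bases occurred 5 times. At Meg3, a maternally expressed noncoding RNA gene, a CTCF member was 29 and 27 bp wide at heights of 4.70 and 2.92. Heights were the lower in replicate 2 at all 3, whereas only the first had a much shorter replicate 2 interval.

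REST matches had a ratio as high as that of CTCF, on few windows, and a tight placement. They were found in 147 wide windows (0.698%, 0.594 to 0.820) and 5 narrow windows (0.0364%, 0.0155 to 0.0851), against 0.217% and 0.0999% of DHS centres, a log2 ratio of wide to narrow of 4.13. The footprint began 5 bp before the match and ended 9 bp after it (medians), and the centres of match and footprint were within 5 bp of each other in 94.6%. Of 263 REST matches in shared DHSs, 68.8% lay under a wide replicate 1 footprint and 84.4% under any, and in replicate 2 6.84% and 44.1%. Under a wide replicate 1 and any replicate 2 footprint lay 38.4%. Median heights of the DHSs with a wide REST footprint were 3.57 and 1.42. The tallest, near Npas4, a neuronal activity gene, stood in an intron 1145 bp from the start (chr19:4989157-4989185), at heights of 16.5 and 5.52 and widths of 29 and 22 bp.

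**Figure D2:**
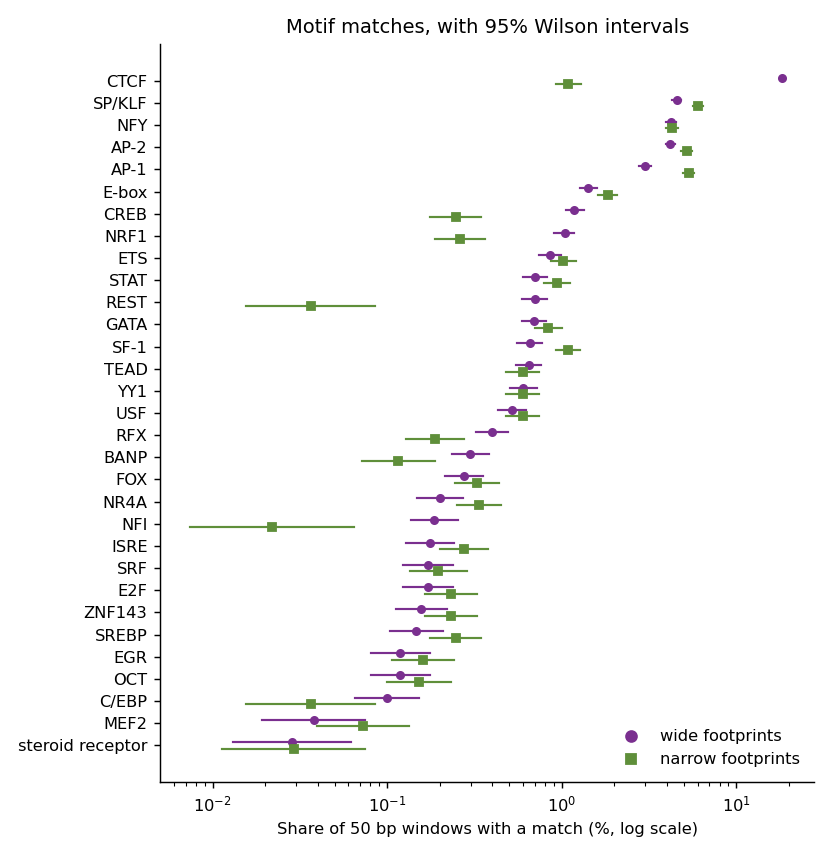
Share of 50 bp windows (horizontal log axis, in percent) with a match to each consensus, for wide and narrow footprints, with Wilson 95% intervals as bars. CTCF stands at 18.3% in wide and 1.09% in narrow windows, and motifs with no match in 1 or both classes, and 1 other motif, are left out.

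Of the 36 motifs searched, 7 (19.4%) had a higher share in wide windows with intervals apart and 5 (13.9%) a lower one, and 24 had intervals that overlapped. Beside CTCF and REST, the higher ones were CREB, NRF1, RFX, BANP and NFI. The palindromes of AP-1, E-box and AP-2 were among the lower ones. CREB (TGACGTCA) matches were in 1.18% of wide and 0.247% of narrow windows, and in 0.350% and 0.278% of DHS centres. NRF1 was in 1.04% and 0.262%, with 0.336% and 0.228% of DHS centres. RFX was in 0.399% and 0.189%, with 0.213% and 0.179% of DHS centres. BANP (CTCGCGAG) was in 0.299% and 0.116%, with 0.0857% and 0.0655% of DHS centres, and all of its wide footprints were at promoters (100%). NFI (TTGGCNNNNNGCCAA) was in 0.185% and 0.0218%, where 3 narrow windows held it, with 0.104% and 0.0470% of DHS centres. The direction for NRF1, RFX and BANP reversed when the comparison class was 13 to 24 bp, with log2 ratios of -0.84, -0.76 and -0.24, the last with overlapping intervals. The intervals for CREB (0.28) and NFI (0.88) overlapped in that comparison too, so of the 7 motifs only CTCF and REST kept a higher share with intervals apart.

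Most CREB, NRF1, NFI and RFX matches lay near the middle of wide footprints and were covered with a margin on both sides. CREB sites had 8 bp before and 10 bp after the match (medians, 248 windows with 1 match), NRF1 sites 9 and 8 bp, NFI sites 5 and 7 bp and RFX sites 5 and 6 bp. Their replicate 2 footprints stayed wider than those at CTCF sites, with median widths of 22 bp at CREB and 21 bp at NRF1 matches against 15 bp at CTCF. At least 25 bp in replicate 2 was reached by 27.9% of CREB, 30.7% of NRF1 and 40.4% of BANP members, against 15.4% of CTCF members. CREB and NRF1 members stood mostly at promoters (76.6% and 89.4%), in DHSs with median heights of 14.8 and 10.3 for CREB and 15.4 and 10.4 for NRF1. NFI members were mostly distal, with 10.3% at promoters and median heights of 3.34 and 2.24.

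Examples at promoters differed in how far replicate 2 gave the same width. At Lrrc8a, a subunit of a volume-regulated anion channel, the CREB member was 29 and 26 bp wide at heights of 35.8 and 25.0. At Nup107, a nuclear pore gene, 4 members lay in 1 DHS of heights 52.9 and 39.8, and the NRF1 member was 33 and 34 bp wide. At Gstm7, a glutathione transferase gene, the NFI member was 27 and 25 bp wide at 23 and 12.3. At Bclaf1, the BANP member was 34 and 22 bp wide at 30.9 and 24.6. The RFX member at Prkar1a was 25 and 14 bp wide, so the widths were close at Lrrc8a, Nup107 and Gstm7 and shorter in replicate 2 at Bclaf1 and Prkar1a.

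Motifs with a lower share in wide windows were those of AP-1, SF-1, SP/KLF, E-box and AP-2. AP-1 (TGANTCA) was in 3.0% of wide and 5.33% of narrow windows, and in 4.61% and 3.95% of DHS centres. SF-1 (CAAGGTCA) was in 0.656% and 1.08%, and in 1.05% and 0.859% of DHS centres. The AP-1 share was lower on 19 of 19 autosomes and the SF-1 share on 16. SP/KLF (GGGCGGGG) was in 4.55% and 6.01%, the E-box (CACGTG) in 1.42% and 1.83%, and AP-2 (GCCNNNGGC) in 4.19% and 5.19%. For AP-1 and SF-1 the intervals overlapped against footprints of 13 to 24 bp (log2 ratios -0.12 and -0.19), within the footprint and 5 bp on each side (-0.15 and -0.09) and at promoters (-0.45 and -0.57), and for SF-1 also with replicate 2 intervals (-0.34) and with replicate 2 alone (-0.38). Among promoter footprints alone the first 2 of these 3 turned round, SP/KLF to 12.7% of wide and 10.5% of narrow windows and the E-box to 2.35% and 2.12%. Counting matches within the footprint and 5 bp on each side, where a wide footprint simply has more bases, turned round SP/KLF, E-box and AP-2.

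AP-1 and SF-1 matches in wide windows lay towards the ends of the footprint. The match centre was within 5 bp of the footprint centre in 15.7% of wide and 31.6% of narrow windows for AP-1, and in 10.1% and 46.3% for SF-1. The consensus was fully inside the wide footprint in 53.0% (AP-1) and 70.3% (SF-1). Of 11724 AP-1 matches in shared DHSs, 5.12% lay under a wide footprint and 22.2% under any in replicate 1, and of 2508 SF-1 matches 5.86% and 31.0%. For AGATAA, the motif bound by Gata4 and Gata6, the shares were 1.86% and 8.42% of 4036 matches. Under a wide replicate 1 and also any replicate 2 footprint lay 1.13% of the AP-1, 2.19% of the SF-1 and 0.297% of the AGATAA matches. The AP-1 match at Eif1 shown above lay at the end of the footprint and mostly beyond it, and the widths there were 30 and 23 bp at heights of 31.4 and 23.8. At Taok3 a wide footprint with an SF-1 match, outside UTRs, was 35 and 23 bp wide at heights of 21.2 and 15.6.

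**Figure D3:**
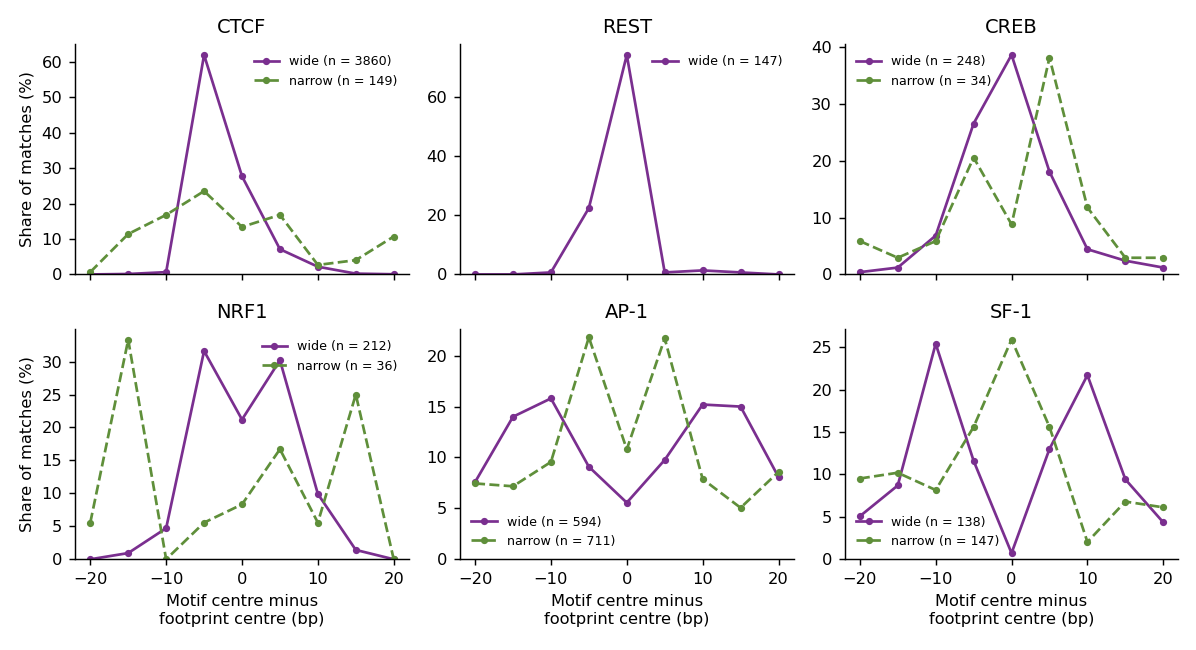
Distance from the footprint centre to the motif centre in bp (horizontal axis, bins of 5 bp, in the direction of the motif) against the share of matches in percent, for wide and narrow footprints with 1 match. CTCF peaks 5 bp before the centre (61.9% of wide matches) and REST at the centre (74.1%), whereas AP-1 and SF-1 in wide footprints have their lowest shares at the centre, and REST has too few narrow matches to draw.

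Some motifs overlapped in wide windows: 36.4% of E-box matches lay in the longer USF motif (GTCACGTG), 11 of 25 EGR matches (GCGTGGGCG) overlapped an SP/KLF match, and 4 of 39 NFI matches overlapped an AP-2 match, whereas 0.543% of CTCF matches overlapped one of AP-2. Any of the 36 motifs was found in 40.9% of wide and 28.8% of narrow windows, so most wide footprints held no full match to any of them. This search allowed no mismatch. With 2 mismatches allowed, CTCF alone was found in 50.6% of wide and 19.4% of narrow windows. Sequences beyond the list were looked for with 8-mers. Of 13556 8-mers in at least 20 wide windows, 185 (1.36%) were at least 4-fold more frequent in wide than in narrow windows. For 144 of the 185, over 80% of their wide windows also held a CTCF site at up to 2 mismatches. Among the 10391 members without such a site, against all narrow footprints, 60 of 6462 8-mers (0.929%) were called, a repeat chosen after seeing the data. Among the 60 were parts of the REST motif (ACCACGGA, in 0.683% of wide and 0.0582% of narrow windows), the CREB palindrome (TGACGTCA, 2.05% and 0.247%), part of the NRF1 motif (GCATGCGC, 1.83% and 0.356%) and the BANP palindrome (CTCGCGAG, 0.520% and 0.116%). Also called were ATTGCGCA (0.289% and 0.0437%), and GGGTTCGA (0.385% and 0.0437%) with its neighbour GGTTCGAA (0.289% and 0.0437%).

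The last pair resembles the B box inside tRNA genes, to which the polymerase III factor TFIIIC binds, so tRNA genes were looked up after the 8-mers had been seen. Centres of 76 wide footprints (0.361%, 0.289 to 0.452) and of 6 narrow footprints (0.0437%, 0.0200 to 0.0952) lay in a RefSeq tRNA gene. The 76 lay in 74 of the 386 autosomal tRNA genes. Their centres had a median position of 59 in genes with a median length of 72 bp, and their median width was 36 bp, longer than the 29 bp of all members. Of the members whose central 32 bases occur once in the reference, the tRNA-Thr member shown above (chr16:13437359-13437392) was 34 and 13 bp wide at heights of 16.2 and 8.37. A tRNA-Ser member (chr10:63429481-63429513) was 33 and 7 bp wide at heights of 16.6 and 8.23, so these replicate 2 intervals were again short.

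Wide footprints lay less often at promoters than narrow ones, but this depended on which library gave the intervals. Of the members, 31.1% (30.5 to 31.8) were at promoters, 28.5% in introns, 35.7% intergenic and 4.72% in exons, against 44.9%, 24.7%, 25.9% and 4.51% of narrow footprints. The shared DHSs as a whole had a promoter share of 30.2%. The wide share was the lower on 19 of 19 autosomes. Median distances to a start were 8340 and 2344 bp. With replicate 2 intervals the direction reversed, at 47.9% of 3242 wide and 39.7% of 28879 narrow footprints. With replicate 1 alone, without asking for replicate 2, the shares were 27.8% and 29.7%, and with replicate 2 alone 47.7% and 28.4%. Replicate 1 footprints of 13 to 19 bp had the highest promoter share of any width class, 55.1%. Within promoters, 72.3% of wide and 63.6% of narrow footprints lay upstream of the start.

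DHSs with wide footprints were taller than those with narrow ones in both libraries, though by little in replicate 2. The median height, counted per footprint, was 5.59 against 3.16 in replicate 1, higher on 19 of 19 autosomes, and 2.71 against 2.40 in replicate 2, higher on 17. With each DHS counted once it was 4.83 against 2.77 in replicate 1 and 2.35 against 2.15 in replicate 2. Both classes were found in 2365 DHSs, 12.9% of those with a wide and 19.8% of those with a narrow footprint. At promoters the medians were 13.8 and 9.69 in replicate 1 and 9.27 and 7.41 in replicate 2. At distal sites they were 4.01 and 1.53, and 1.94 and 1.40. Mean log2 ratios over both libraries were 0.50 (SD 0.46, n = 2) for all sites, 0.42 at promoters and 0.93 at distal sites. Footprints of 13 to 24 bp stood in DHSs taller than those of wide ones in both libraries, with log2 ratios of wide to that class of -0.17 and -0.68, so height did not rise steadily with width. With the shorter DHS lists the ratio was 0.35 in replicate 1 and -0.22 in replicate 2.

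**Figure D4:**
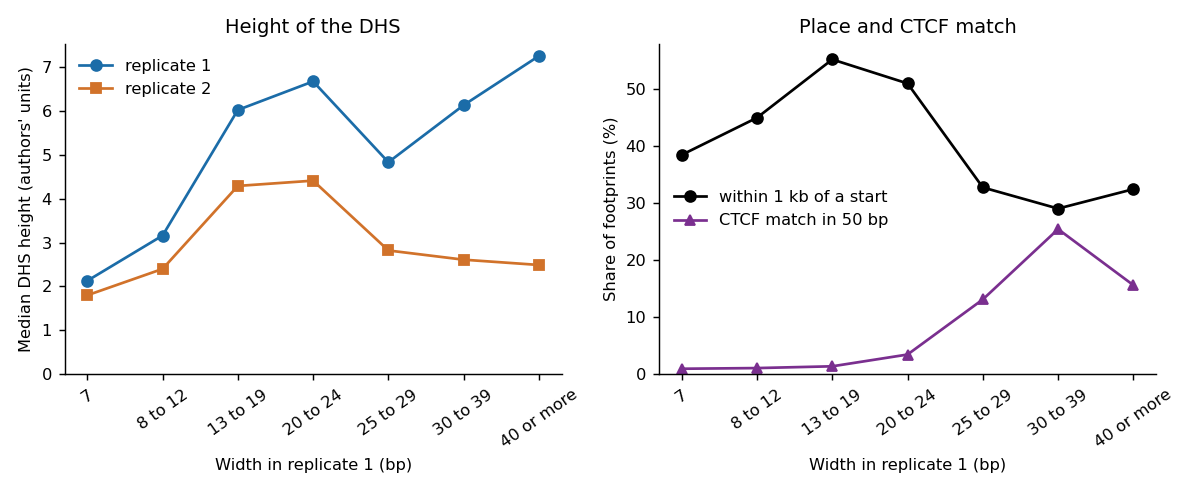
Left, median height of the DHS (authors' units) against footprint width in replicate 1 (classes in bp) for footprints in both libraries, with replicate 1 heights as circles and replicate 2 heights as squares. Right, share of the same footprints within 1 kb of a start, highest at 13 to 19 bp (55.1%), and share with a CTCF match, highest at 30 to 39 bp (25.4%).

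The taller a DHS, the more often it held a wide footprint. Among 79479 shared DHSs ranked by replicate 1 height, 0.164% of the lowest 10% and 54.4% of the highest 10% held one, against 6.11% and 32.2% for narrow footprints. Ranked by replicate 2 height, the wide shares were 3.05% and 46.9%. Both rankings are descriptions, since the rule needs a footprint and a DHS in each library. Over all shared DHSs the share was 23%. How far the number of cuts sets these shares was not tested. The members stood in 18271 DHSs, of which 15788 (86.4%) held 1, 2198 held 2 and at most 4 were found in 1 DHS. A wide footprint lay a median of 15 bp from the DHS centre and a narrow one 34 bp, and 69.7% and 39.9% lay within 25 bp.

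**Figure D5:**
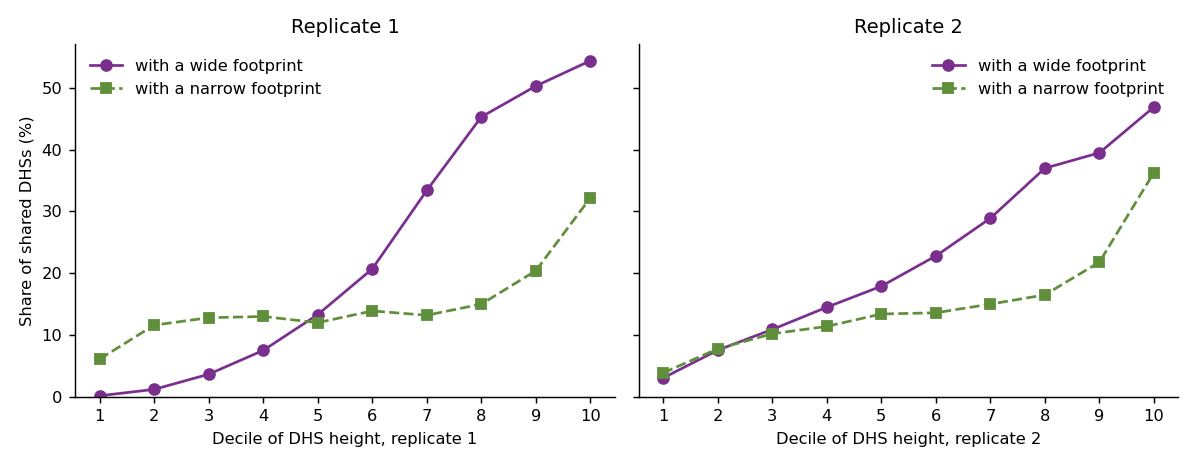
Share of DHSs shared by both libraries (percent) that held a wide or a narrow footprint, by decile of DHS height in replicate 1 (left) and replicate 2 (right). The wide share rises from 0.164% to 54.4% in replicate 1 and from 3.05% to 46.9% in replicate 2.

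Base composition was similar in the classes at distal sites, and repeat content could not be compared at equal length. Mean GC content of the 50 bp windows was 59.9% (SD 9.0, over 21051 windows) in wide and 61.6% (SD 10.3) in narrow footprints, and at distal sites 57.2% and 57.1%. A soft-masked base, which marks a repeat in the reference, was present in 11.8% of wide and 8.79% of narrow footprints, while 1.2% and 4.98% were soft-masked throughout. These shares were counted over the footprint itself. A longer interval meets a masked base more easily and is masked throughout less easily, so they cannot tell repeat content from width. The central 32 bases occurred more than once in 1.06% and 0.880%. Footprints in the tallest DHSs included such places: at Gm11168 a fully soft-masked member (chr9:3002479-3002526) was 48 and 53 bp wide at heights of 48.0 and 71.4, and a second in the same DHS (chr9:3002543-3002588), whose central bases occurred 29 times, was 46 and 48 bp wide. At Gm10719 (chr9:3019146-3019183) a fully soft-masked member was 38 bp wide in both libraries, at heights of 9.60 and 62.7. Keeping the 20827 members with 1 copy, or the 18565 without a soft-masked base, left the direction of the promoter share, the height and the 12 motifs above as it was.

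Apart from the 3 members at Gm11168 and Gm10719, those in the 10 tallest DHSs stood at promoters without soft-masked bases. Parp6, for a member of the PARP family, had 4 members in a DHS of heights 38.9 and 34.2, with widths of 29, 27, 27 and 25 bp in replicate 1 and 30, 32, 30 and 26 bp in replicate 2. Fzr1, an activator of the anaphase-promoting complex, had 2 members of 26 bp with 25 and 21 bp in replicate 2, at heights of 36.1 and 36.7. At Bahcc1, 3 members were 39, 37 and 30 bp wide in replicate 1 and 24, 18 and 31 bp in replicate 2, at heights of 53.9 and 31.0. At Dynlt1b, a dynein light chain gene with close copies, 3 members were 47, 47 and 30 bp wide and 38, 20 and 28 bp in replicate 2, at 53.4 and 33.0.

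The 10 widest members mostly lost their width in replicate 2. They measured 61 to 72 bp in replicate 1 and 7 to 29 bp in replicate 2. At Stip1, a co-chaperone gene whose sequence is shown above, the widths were 66 and 16 bp and the heights 20.2 and 16.1. At Cdr2 they were 66 and 12 bp, at 9.87 and 5.92, and both of these promoters held an NFY match (CCAATCA, and likewise CCAATCG, then also CCAATGA, and as the fourth form CCAATGG). At Hexim2, which encodes an inhibitor of the elongation factor P-TEFb, they were 63 and 29 bp, at 25.8 and 16.8. At Smarcc2, a subunit of the SWI/SNF complex, they were 63 and 7 bp, at 11.5 and 3.20. None of the 10 was 30 bp wide or more in replicate 2. NFY matches were as frequent in both classes, in 4.22% of wide and 4.26% of narrow windows.

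A wide footprint lay within 1 kb of a start of 5313 of 20671 autosomal protein-coding genes (25.7%), and of 38.8% of the 13681 genes with a shared DHS there. A narrow footprint lay within 1 kb of a start of 5074 of the 20671 genes. The gene lists below are set beside these shares as a description. Narrow footprints lay at 4 neuronal, 3 chromaffin, 3 steroid synthesis, 3 cortical regulator, 8 cholesterol and 10 clock genes. They also lay at 8 early response, 4 imprinted, 4 cilium and 2 other-organ genes. Of 15 autosomal neuronal genes that REST silences in other tissues, all with a shared DHS, 11 (73.3%) had a wide footprint. Of 20 chromaffin genes, 17 with a shared DHS, 7 (35%) had one, with Snap25, Chga and Scg2 on both lists. REST matches lay in the wide footprints of 7 of the 11 neuronal genes, namely Bdnf, Chga, Chrnb2, Gria2, Grin1, Scn2a and Snap25. They also lay in those of 3 of the 7 chromaffin genes, Chga, Chgb and Snap25, all named after their values were seen. Within the footprint and 5 bp on each side, 0.694% of all members held a REST match. The neuronal list was chosen for silencing by REST, so its count is not independent of the motif. The examples that follow all held a match, and list members without one, some in taller DHSs, are not described. Chgb, for the granule protein chromogranin B, had widths of 31 and 32 bp at heights of 13.3 and 4.91. Snap25, for a vesicle fusion protein, had 30 and 12 bp at 8.49 and 2.68. Chrnb2, a nicotinic receptor subunit, had 31 and 10 bp at 6.05 and 3.54. The Chgb footprint was as wide in replicate 2, and the other 2 were short there.

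Among genes of the cortex, the steroid synthesis list had a share close to that of all genes. Of 15 steroid synthesis genes, 12 with a shared DHS, 4 (26.7%) had one: Fdx1, Fdxr, Por and Akr1b7. Star, which brings cholesterol into mitochondria, and the steroid enzyme genes Cyp11a1, Cyp11b1 and Cyp21a1 had a shared DHS and neither a wide nor a narrow footprint, and are named after their values were seen. Fdxr, for the reductase that feeds electrons to the mitochondrial P450 enzymes, had widths of 29 and 28 bp at heights of 16.9 and 14.3. Fdx1, for its partner adrenodoxin, had 26 and 18 bp at 13.2 and 8.01. Akr1b7, an aldo-keto reductase of the cortex, had 28 and 7 bp at 3.71 and 2.48. Of 11 autosomal cortical regulators, 6 (54.5%) had one, among them Prkar1a, the regulatory subunit of protein kinase A, with the RFX match shown above, at 25 and 14 bp and heights of 11.8 and 10. None of the 5 wide footprints of the steroid genes and the 9 of the regulators held an SF-1 match within the footprint and 5 bp on each side, where 0.556% of all members had one, so 14 footprints are too few to read this count.

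The cholesterol, clock and early response genes all had a shared DHS. The members named here are only some of the up to 4 taken per list by DHS height, and not always the tallest. Of 16 cholesterol genes 6 (37.5%) had a wide footprint, close to the 38.8% of all genes with a shared DHS. Insig1, which holds back the SREBP factors, had widths of 29 and 31 bp at heights of 23.4 and 17.6, and Lss, for lanosterol synthase, 26 and 13 bp at 18.4 and 16.5. Of 15 clock genes 10 (66.7%) had one, and as many had a narrow footprint. Per1 had 3 wide footprints, the one in the tallest DHS 31 and 23 bp wide at 19.5 and 12.6 with an NFY match. Arntl had 1 of 28 and 10 bp at 16.3 and 16.1. Of 12 early response genes 6 (50%) had one. Jun had one of 34 and 36 bp at 19.5 and 18 with a MEF2 match, found in 0.0380% of wide and 0.0728% of narrow windows. Atf3 had one of 27 and 26 bp at 29.3 and 19.5. Dusp1 had 4, the one in the tallest DHS 33 and 22 bp wide at 18.9 and 13 and fully soft-masked. The widths at Insig1, Jun and Atf3 differed by at most 2 bp between the libraries, and the replicate 2 intervals at Lss, Arntl, Per1 and Dusp1 were shorter.

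The remaining lists were imprinted genes, cilium genes and genes of other organs. Of 13 imprinted genes 5 (38.5%) had a wide footprint. Peg3, whose product is a paternally expressed zinc finger protein, had 36 and 16 bp at 13.1 and 6.50 with a YY1 match (AANATGGCG). YY1 matches were in 0.603% of wide and 0.597% of narrow windows. Of 15 cilium genes 8 (53.3%) had a wide footprint. Of their 10 wide footprints 1, at Dync2li1, held an RFX match, against 0.390% of all members, and 10 are too few to read this count. That gene is named after its value was seen. Rfx2, an RFX factor gene itself, had 44 and 11 bp at 23.2 and 15.6. Of 9 genes of liver, kidney and muscle 1 (11.1%), Ckm, had one, of 25 and 22 bp.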

How the data were processed

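DNase-seq intervals of 2 adrenal gland libraries were used as deposited, in mm10. Peak height is the deposited signal value of a DHS, which the authors gave in whole steps per library. Every deposited footprint carries the same FDR (q-value) threshold of 0.01, which does not rank them, and the least width was 7 bp. For the aligner and the callers, names were not given in the sources used here.

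The DHS of a footprint was the longer-list peak that holds its centre base. Promoters were the 1 kb around protein-coding starts of GENCODE M21, and sequence came from RefSeq GRCm38.p6. Python 3.11.15, pandas 2.3.3 and numpy 2.4.6 were used, and 8 steps on simulated data recovered their known answers. Shares have 95% Wilson intervals, which cover counting error only, and a motif was counted as higher or lower where the intervals of wide and narrow windows were apart. Named members were the 10 widest, those in the 10 tallest DHSs, the one in the tallest DHS for each of 36 motifs, and up to 4 per gene list by height, and further genes are marked where they appear. Alternatives were other widths, overlaps, DHS lists, replicate 2 intervals, each library alone, repeats left out and another comparison class. The members and lists were chosen with earlier results of these data known. Results on some genes and 1 motif are not reported here.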

Additional observations from a re-analysis of the deposited data

How the results depend on the processing

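CTCF had the higher share in wide footprints under all 15 alternatives (log2 ratio 1.38 to 5.79) and REST under all 13 it was run with (1.13 to 7.58). The number of wide footprints was 10246 at 30 bp or more, 33754 at 20 bp or more, 9691 where 50% of both intervals had to overlap, 3242 with replicate 2 intervals, and 3400 to 30655 when either library was left out. The promoter share of wide minus narrow footprints was -15.4 points at 30 bp, -6.38 at 20 bp, -7.89 with 50% overlap, -19.6 with the shorter DHS lists and -22.0 against 13 to 24 bp. It reversed to 8.15 with replicate 2 intervals, and without either library it ran from -1.90 (replicate 1 alone) to 19.3 (replicate 2 alone). The mean log2 height ratio was 0.98 with 50% overlap, 1.60 with replicate 2 intervals, 1.63 to 2.62 without either library, and reversed to -0.42 against 13 to 24 bp. Motifs with a higher share numbered 4 at 30 bp, 2 against 13 to 24 bp, 16 within the footprint and 5 bp, 3 at distal sites and 12 to 13 without either library. Called 8-mers numbered 374 in 30 bp windows and 60 without CTCF members, the last chosen after seeing the data.

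Single motifs reversed as follows, in log2 ratios. SP/KLF was 0.28 at 20 bp, 0.77 without replicate 1, 0.22 without replicate 2, 0.13 within the footprint and 5 bp, and 0.27 at promoters. AP-2 was 0.07 with replicate 2 intervals, 0.48 without replicate 1 (-0.17 without replicate 2) and 0.66 within the footprint and 5 bp. The E-box was 0.49 within the footprint and 5 bp and 0.15 at promoters. Against 13 to 24 bp, NRF1 was -0.84, RFX -0.76 and BANP -0.24. The cause of these changes was not tested. No paired analysis was possible because the 2 libraries form 1 group. Depth beyond the implied totals is unknown, and 2 libraries limit every comparison between them.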

Other observations

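Nearly all heights fell from replicate 1 to replicate 2 at wide footprints, less so at narrow ones: 6.86% of wide and 29.5% of narrow footprints had the higher height in replicate 2, with median log2 ratios of -0.81 (SD 0.63 over sites) and -0.27 (SD 0.55). At distal sites the medians were -0.97 and -0.14, and at promoters -0.56 and -0.36. Since width was taken from replicate 1, the choice of members and the difference between the libraries cannot be told apart here.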
